A study of Oryctolagus cuniculus with 6 samples.

Results

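The epithelial integrins are 10 genes for cell surface receptors, ITGA2, ITGA3, ITGA5, ITGA6 and ITGAV for α subunits and ITGB1, ITGB4, ITGB5, ITGB6 and ITGB8 for β subunits. They were chosen by name and not by a threshold on a measured value, and make up 10 of its 22190 genes. RNA-seq libraries had been made from primary limbal stem cells (LSCs) that grew from limbal explants of rabbit corneas, the limbus being the border zone that renews the corneal epithelium. The fresh group (3 libraries) came from untreated tissue, whereas the corneas of the preconditioned group (3 libraries) had been stored for a week in liquid nitrogen in a freezing medium with IL-1β, an inflammatory cytokine. The effects of the cytokine and of the frozen storage cannot be told apart. The RNA was taken from cultured outgrowths and not from the limbus itself, and the strain, age and animal behind each library are not given in the sources used here.

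Integrins are heterodimers of an α and a β subunit that span the membrane, bind extracellular matrix outside the cell and connect to the cytoskeleton inside it. In stratified epithelia, α6β4 anchors basal cells to laminin-332 through hemidesmosomes, which attach to keratin filaments. α3β1 also binds laminin-332, α2β1 binds collagen and α5β1 binds fibronectin, and these dimers assemble focal adhesions that attach to actin. Among the β subunits of these genes, αv pairs with β1, β5, β6 or β8. It binds proteins with an arginine-glycine-aspartate motif, and with β6 or β8 activates latent TGF-β. The GO terms in the table assign integrin-mediated signaling to 9 of the 10 genes, focal adhesion to 8, hemidesmosome to ITGA6 and ITGB4 alone, and regulation of TGF-β activation to ITGAV, ITGB6 and ITGB8.

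The libraries held 31952352 to 34327534 counts on genes, and every integrin had at least 869 counts in every library, so that the spread between libraries and not the depth limited precision. On the first principal component, which held 50.4% of the variance, preconditioned replicate 1 lay at 8.13, between the fresh libraries (−53.1 to −41.1) and the other preconditioned libraries (58.3 and 70.4). Counts of calls that depend on it are given with and without it. The labelled cell type was checked by markers. KRT5, a keratin of basal epithelial cells, had 7337 to 11740 CPM (counts scaled to library size by the TMM method), TP63, a transcription factor of limbal progenitors, 226 to 246 CPM in the fresh and 112 to 183 CPM in the preconditioned libraries (log2 fold change −0.77, edgeR adjusted p = 0.0588), and PAX6, a transcription factor of the corneal lineage, 174 to 218 and 203 to 459 CPM (0.81, adjusted p = 0.112), while KRT15, a keratin of basal limbal cells, had at most 9.71 CPM. With preconditioned replicate 1 left out, edgeR gave 25.2% of all genes an adjusted p ≤ 0.05 at any fold. In that fit TP63 fell by 1.03 on the log2 scale (edgeR adjusted p = 0.00398) and PAX6 rose by 1.07 (adjusted p = 0.00602). EPCAM, an epithelial adhesion molecule, was also higher, by less than 2-fold (0.59, adjusted p = 0.0135). KRT3, the differentiation marker of the study, had 961, 2655 and 409 CPM in the fresh and 801, 239 and 697 CPM in the preconditioned libraries. With all 6 libraries its log2 fold change was −1.21 (edgeR adjusted p = 0.296), and that of CDH1, a cadherin, was −0.07 (adjusted p = 0.769). Of the 7 epithelial markers, 3 had a positive and 4 a negative log2 fold change in that fit. KRT12 and KRT14 were not analysed here. Summed over 10 markers of stromal fibroblasts, the fresh libraries had 529 to 1144 CPM and the preconditioned libraries 1299 to 2323 CPM. Without COL1A1, a collagen of stromal fibroblasts, the sums of the other 9 overlapped (472 to 1036 CPM and 779 to 1630 CPM), and 4 of the 10 markers had a negative log2 fold change. In bulk samples a change in the share of a cell type and a change in RNA per cell cannot be told apart.

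Levels of different subunits were compared by FPKM, counts divided by library total and gene length, averaged over the 3 fresh libraries. ITGB1 ranked first with 532 ± 87.5 FPKM (SD, n = 3). It was followed by the α subunits of the laminin receptors, ITGA6 with 270 ± 37.2 FPKM and ITGA3 with 264 ± 6.0 FPKM (SD, n = 3 each), whose libraries overlapped, and by ITGB4 with 108 ± 19.7 FPKM. A wide gap separated these 4 genes from the other 6. ITGB6 (30.0 ± 6.61 FPKM), ITGA2 (28.4 ± 5.11 FPKM), ITGA5 (26.5 ± 7.15 FPKM) and ITGAV (23.1 ± 0.785 FPKM) followed with ranges that overlapped each other, apart from ITGA2 and ITGAV. The lowest were ITGB8 (14.1 ± 2.92 FPKM) and ITGB5 (11.9 ± 1.58 FPKM), whose ranges overlapped as well. ITGA3 and ITGA6 together thus carried most of the α subunit FPKM of these genes, with 43.2% ± 3.29 and 44.0% ± 3.64 (SD, n = 3 each), and ITGB1 carried 76.4% ± 2.92 of the β subunit FPKM. In the preconditioned group the first 4 genes kept this order, with 886 ± 160 FPKM for ITGB1, 222 ± 25.2 for ITGA6, 200 ± 27.1 for ITGA3 and 148 ± 19.0 for ITGB4 (SD, n = 3 each). Left out of these levels and shares was LOC127490224, a gene described as similar to integrin β4, with 92.1 ± 12.1 FPKM in the fresh libraries (SD, n = 3). ITGB4 was 53.0% to 55.4% of the FPKM of both genes there.

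Preconditioned and fresh libraries were compared with edgeR's quasi-likelihood test on the counts, with p values adjusted over the 15029 genes that passed a filter on low counts, among them all 10 integrins. ITGB1, the common partner of most α subunits, and ITGAV rose in the preconditioned group by less than 2-fold. ITGB4 was next, with an adjusted p just above 0.05, whereas ITGA3 and ITGA6 had small negative log2 fold changes. ITGA2, ITGB6 and ITGB8 varied widely among the preconditioned libraries.

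At both cutoffs of the study, 0.05 for the adjusted p and a 2-fold change up or down, edgeR called 0 of the 10 integrins, against 2.29% of all genes tested, and DESeq2 also called 0, against 7.78% of the genes to which it gave an adjusted p. An unadjusted p under 0.05 was found for 3 of the 10, close to the 30.6% of all genes. At adjusted p ≤ 0.05 and any fold, edgeR called 2 of the 10 (ITGAV and ITGB1), against 5.08% of all genes, both of them higher, against 2.88% of all genes in that direction. DESeq2 called 3, the third being ITGB4, against 19.1% of those genes. Without preconditioned replicate 1, edgeR also called these 3, against 25.2% of all genes. Without overlap between the groups were 4 of the 10 (ITGAV, ITGB1 and ITGB4 higher, ITGA3 lower), which is close to the 36.7% of all genes (17.9% higher and 18.8% lower). The log2 fold change was above 0 for 7 of the 10, with a median of 0.29 beside 0.01 over all genes tested. ITGB8, 1 of these 7, was just below 0 with limma on FPKM. Without preconditioned replicate 1, ITGA2 (−0.01) and ITGB8 (−0.16) were below 0, ITGB5 (0.12) was above it and ITGB6 was at 0.04. The count above 0 and the median thus depend on single libraries.

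**Figure D1:**
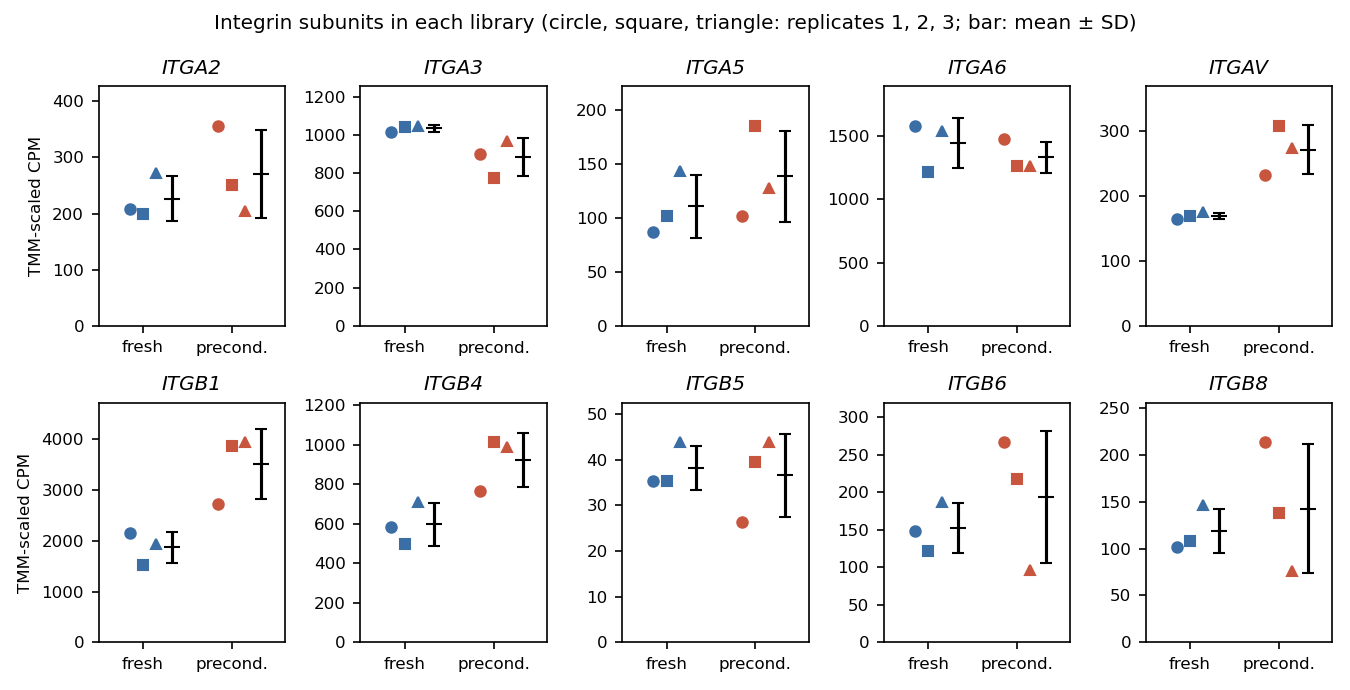
Expression of each integrin gene (TMM-scaled CPM, linear axis from 0) in the 3 fresh (blue) and 3 preconditioned (red) libraries, with the mean and SD of each group. ITGAV, ITGB1 and ITGB4 lie higher in every preconditioned library than in any fresh library, ITGA3 lies lower, and the other 6 genes overlap.

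Of the β subunits, ITGB1 had 2145, 1532 and 1933 CPM in fresh replicates 1 to 3 and 2719, 3875 and 3936 CPM in preconditioned replicates 1 to 3. Every preconditioned library was above every fresh library, and preconditioned replicate 1 was the lowest of its group. The means were 1870 ± 311 and 3510 ± 686 CPM (SD, n = 3 each), which gave a log2 fold change of 0.91 ± 0.20 (SE; edgeR adjusted p = 0.0479). Without preconditioned replicate 1, it was 1.05 (adjusted p = 0.0081 from edgeR), and ITGB1 then passed both cutoffs, as did 9.99% of all genes. When any other library was left out, the adjusted p from edgeR was above 0.05, up to 0.163, with log2 fold changes of 0.78 to 1.02. COL1A1 rose from 91.3 ± 29.8 to 578 ± 100 CPM (SD, n = 3 each) in the same libraries, the only called gene of the 10 fibroblast markers. The part of fibroblast RNA in the rise of ITGB1 was not tested. The summed CPM of 7 epithelial markers overlapped, from 9758 to 13488 (fresh) and from 9167 to 13502 (preconditioned), and most of it was KRT5. The sums of the other 6 also overlapped (1371 to 3759 and 1378 to 1830).

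ITGB4, the partner of α6 in hemidesmosomes, had 582, 498 and 710 CPM in the fresh libraries and 767, 1011 and 989 CPM in the preconditioned libraries. The groups did not overlap, and their means were 597 ± 107 and 922 ± 135 CPM (SD, n = 3 each), which gave a log2 fold change of 0.63 ± 0.18 (SE; edgeR adjusted p = 0.0715). It passed an adjusted p of 0.05 with DESeq2 (adjusted p = 0.0168) and without preconditioned replicate 1 (log2 fold change 0.73, adjusted p = 0.0219 from edgeR).

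A separate gene of the table, LOC127490224, is described as similar to integrin β4 and carries the GO terms of hemidesmosomes. It was examined after its counts were seen. It had 355, 306 and 396 CPM in the fresh libraries and 504, 345 and 156 CPM in the preconditioned libraries, and its log2 fold change was −0.07 ± 0.38 (SE). The high value of preconditioned replicate 1 and the low value of replicate 3 lay on opposite sides of the fresh group. ITGB4 made up 62.0% to 64.2% of the summed counts of both genes in the fresh libraries, and 60.3%, 74.5% and 86.4% in preconditioned replicates 1 to 3. How reads that fit both genes were counted is not given in the sources used here, so the value of each gene is uncertain. Summed before the fit, the fresh libraries had 949 ± 151 CPM and the preconditioned libraries 1258 ± 107 CPM (SD, n = 3 each). The groups did not overlap, but the log2 fold change was 0.41 ± 0.15 (SE; edgeR adjusted p = 0.124), lower than for ITGB4 alone.

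**Figure D2:**
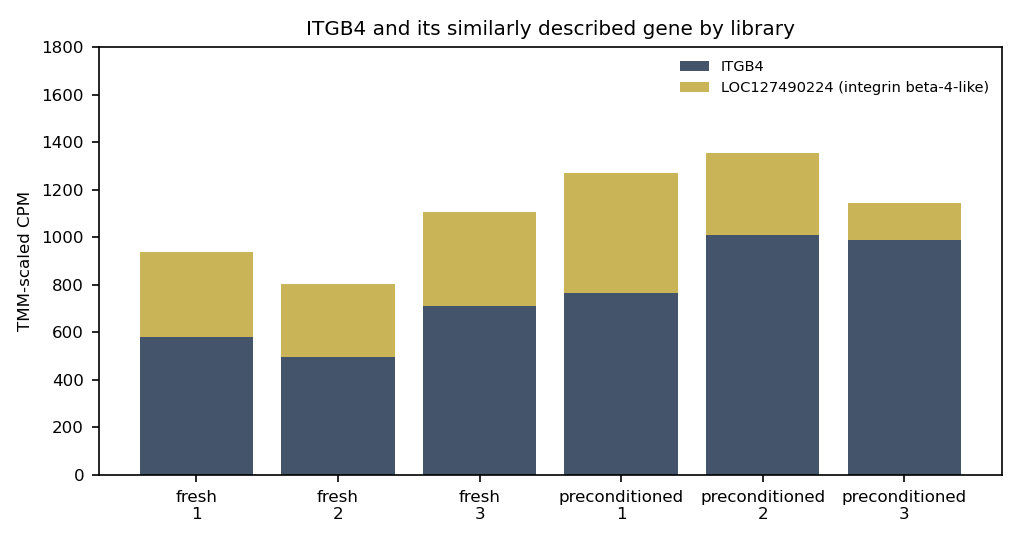
Stacked bars of the expression (TMM-scaled CPM) of ITGB4 and of LOC127490224, described as integrin beta-4-like, in each of the 6 libraries. The upper part shrinks from 504 CPM in preconditioned replicate 1 to 156 CPM in preconditioned replicate 3, while the ITGB4 part is higher in all 3 preconditioned libraries than in the fresh ones.

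ITGB5, a partner of αv that binds vitronectin, had 35.4, 35.4 and 43.8 CPM in the fresh libraries and 26.4, 39.6 and 43.8 CPM in the preconditioned libraries. The groups overlapped, with a log2 fold change of −0.06 ± 0.20 (SE) that turned positive (0.12) without preconditioned replicate 1. ITGB6, the epithelial partner of αv that is known to appear in healing wounds, had 148, 121 and 187 CPM in the fresh libraries and 266, 218 and 96.7 CPM in the preconditioned libraries. ITGB8, which also pairs with αv, had 102, 108 and 146 CPM in the fresh libraries and 213, 138 and 75.8 CPM in the preconditioned libraries.

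For ITGB6 and ITGB8 alike, preconditioned replicate 1 was the highest of all 6 libraries and preconditioned replicate 3 the lowest, so that the preconditioned group held the full range. Of the conjunctival markers, KRT13 had 61.1 CPM in preconditioned replicate 1, 3.92 CPM in replicate 3 and 8.26 to 20.6 CPM in the other libraries, and KRT4 had 44.2, 1.55 and 2.20 to 13.1 CPM, while the sum with KRT19 was 1701 to 3904 CPM in the fresh and 1414 to 3554 CPM in the preconditioned libraries. Their part in the values of ITGB6 and ITGB8 was not tested. The log2 fold changes were 0.35 for ITGB6 (SE 0.36; edgeR adjusted p = 0.545) and 0.26 for ITGB8 (SE 0.36; edgeR adjusted p = 0.647). Without preconditioned replicate 1 they were 0.04 and −0.16, and without preconditioned replicate 3 they were 0.67 and 0.57, each with an adjusted p above 0.05.

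Of the α subunits, ITGAV had 165, 169 and 175 CPM in the fresh libraries and 232, 308 and 274 CPM in the preconditioned libraries. The fresh libraries lay close together, and each preconditioned library was above them. The means were 170 ± 4.92 and 271 ± 38.3 CPM (SD, n = 3 each), which gave a log2 fold change of 0.68 ± 0.13 (SE; edgeR adjusted p = 0.0398). Without preconditioned replicate 1 it was 0.77 (adjusted p = 0.00638), and without any other library it was 0.58 to 0.70, with adjusted p values from edgeR of 0.0922 to 0.149.

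ITGA3, the α subunit of a laminin receptor, had 1012, 1043 and 1046 CPM in the fresh libraries and 902, 774 and 970 CPM in the preconditioned libraries. All preconditioned libraries were below the fresh ones, but the log2 fold change of −0.23 ± 0.12 (SE) did not pass the test (adjusted p = 0.247 from edgeR). ITGA6, a marker used to enrich basal epithelial cells, had 1577, 1214 and 1538 CPM in the fresh libraries and 1471, 1263 and 1259 CPM in the preconditioned libraries. These ranges overlapped, and the log2 fold change was −0.12 ± 0.15 (SE; edgeR adjusted p = 0.616).

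ITGA2, the collagen receptor subunit, had 209, 199 and 272 CPM in the fresh libraries and 356, 251 and 204 CPM in the preconditioned libraries. As for ITGB6 and ITGB8, preconditioned replicate 1 was the highest of all libraries and preconditioned replicate 3 the lowest of its group. The log2 fold change was 0.25 ± 0.23 (SE) and became −0.01 without preconditioned replicate 1. ITGA5, the fibronectin receptor subunit, had 86.7, 102 and 143 CPM in the fresh libraries and 102, 185 and 128 CPM in the preconditioned libraries, which overlapped (log2 fold change 0.32 ± 0.26, SE). It was 0.06 without preconditioned replicate 2 and 0.55 without fresh replicate 3. Here preconditioned replicate 1 was the lowest of its group.

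**Figure D3:**
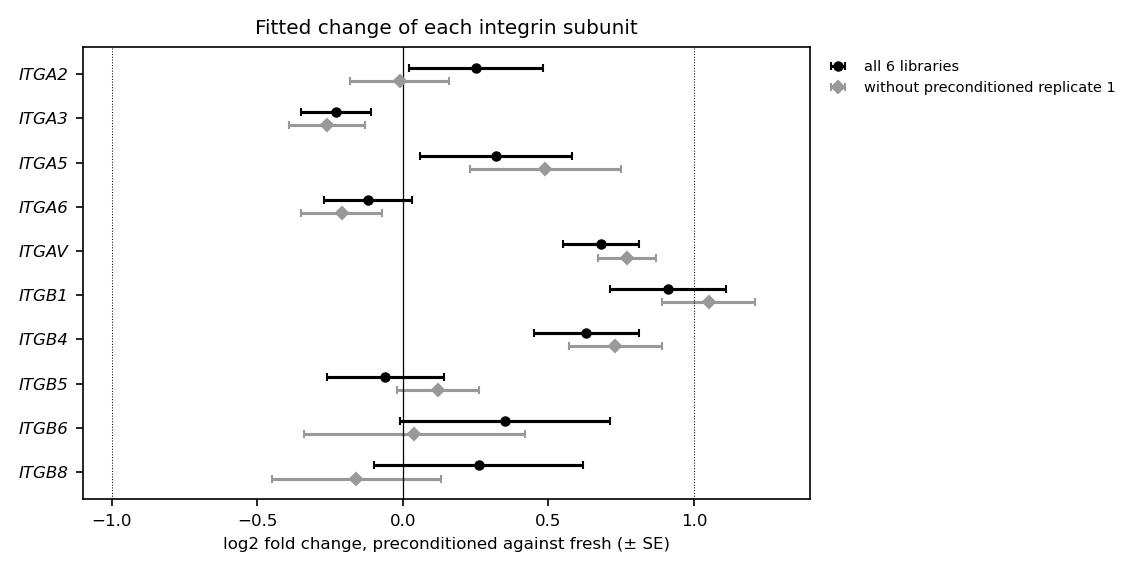
Log2 fold change from edgeR of each integrin gene, preconditioned against fresh, with its standard error, from all 6 libraries (black) and without preconditioned replicate 1 (grey); dotted lines mark −1 and 1. Leaving out that library moved ITGB1 from 0.91 to 1.05 and turned ITGA2, ITGB5 and ITGB8 to the other side of 0.

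For ITGAV and ITGB1, the genes with a symbol whose log2 CPM followed them most closely over the 6 libraries were sought among all genes tested. For ITGAV these were NDFIP1, PLEKHA1 and EML6 (Pearson's r of 0.999, 0.998 and 0.997), and for ITGB1 GLT8D1, UBE2B and MANBAL (r of 0.997, 0.996 and 0.995). These 6 genes were picked for the highest r among all genes tested, and the 6 points fall into the groups, so that the values are a description only. NDFIP1, an adaptor of ubiquitin ligases, rose with a log2 fold change of 0.82 (adjusted p = 0.0389 from edgeR), and MANBAL had one of 0.09.

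To see whether subunits that pair with each other kept their proportions, the ratio of their FPKM was taken within each library. Such a ratio does not depend on how libraries are scaled. ITGA6 over ITGB1 was 0.484, 0.521 and 0.523 in the fresh libraries and 0.356, 0.214 and 0.210 in the preconditioned libraries. ITGA3 over ITGB1 was 0.423, 0.610 and 0.485 in the fresh libraries and 0.297, 0.179 and 0.221 in the preconditioned libraries. For both laminin receptor subunits every preconditioned library was below every fresh library, and preconditioned replicate 1 lay nearest to the fresh group.

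On the log2 scale, the difference of the group means was −1.01 for ITGA6 over ITGB1 and −1.14 for ITGA3 over ITGB1. ITGA6 over ITGB4 was 2.80, 2.52 and 2.24 in the fresh libraries and 1.98, 1.29 and 1.32 in the preconditioned libraries, a log2 difference of −0.74. With LOC127490224 added to ITGB4, that difference was −0.46, and the groups still did not overlap. ITGAV over ITGB5 was 2.04, 2.08 and 1.74 in the fresh libraries and 3.82, 3.40 and 2.73 in the preconditioned libraries, a log2 difference of 0.75 without overlap.

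The other 5 pairs overlapped between the groups. Log2 differences were −0.67 for ITGA2, −0.59 for ITGA5 and −0.24 for ITGAV over ITGB1, and 0.42 and 0.51 for ITGAV over ITGB6 and ITGB8. With 1 library left out, they ranged from −1.06 to −0.40, −0.86 to −0.42 and −0.36 to −0.10 for the first 3. For ITGAV over ITGB6 the range was −0.03 to 0.82, and for ITGAV over ITGB8 0.10 to 0.97. ITGAV over ITGB6 spanned 0.603 to 1.96 within the preconditioned group, wider than the fresh range of 0.647 to 0.962. Over the 9 pairs tested, the exact, 2-sided permutation p was 0.1 for the 4 pairs without overlap (adjusted p = 0.225 over the pairs), which is the smallest value that 3 libraries against 3 can give, and 0.2 to 0.6 for the others. Hence no pair could pass 0.05 in this test. The 4 of 9 pairs without overlap stand beside 36.7% of single genes without overlap. All ratios over ITGB1 share its value, and each had a negative log2 difference, so they are not separate results. Summed over the 5 genes each, without LOC127490224, β over α FPKM was 1.23, 1.01 and 1.15 in the fresh libraries and 1.65, 2.46 and 2.33 in the preconditioned libraries.

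**Figure D4:**
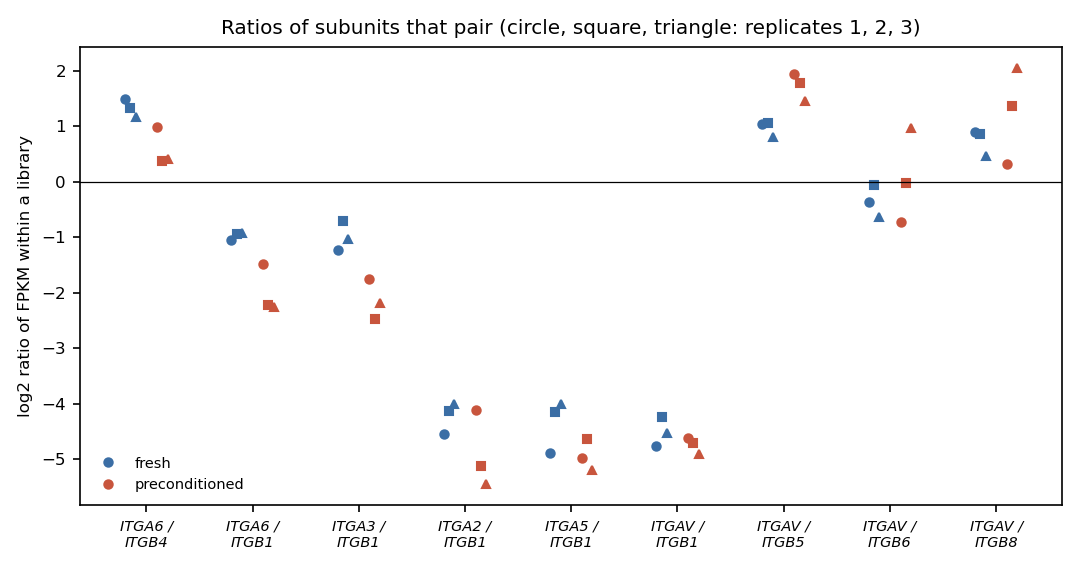
Log2 ratio of FPKM, α over β subunit, within each library for 9 pairs of integrin subunits; blue points are fresh and red points preconditioned libraries. ITGA6 over ITGB4, ITGA6 over ITGB1 and ITGA3 over ITGB1 are lower and ITGAV over ITGB5 is higher in all 3 preconditioned libraries, and the other 5 pairs overlap.

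Matrix ligands of these integrins were the next list examined, with 15 of 16 genes tested. At adjusted p ≤ 0.05, edgeR called 3 of the 15 higher and none lower, against 2.88% and 2.2% of all genes. These counts became 4 and 2 without preconditioned replicate 1, against 11.2% and 13.9% of all genes in that fit. Those described here are COL1A1, a ligand of α2β1, and LAMB3, a chain of laminin-332, the ligand of α6β4 and α3β1. LAMB3 had 832, 780 and 944 CPM in the fresh libraries and 1687, 1971 and 1429 CPM in the preconditioned libraries (log2 fold change 0.99 ± 0.16, SE; edgeR adjusted p = 0.0318). For LAMA3, another chain of laminin-332, all preconditioned libraries were also above the fresh ones, with a log2 fold change of 0.58 (adjusted p = 0.0562 from edgeR). The median of the list was −0.25, as 8 of its 15 genes had a negative log2 fold change. The lowest values were those of NPNT, or nephronectin (−1.77, adjusted p = 0.0761 from edgeR), and of the collagen IV chains COL4A1 (−1.54, adjusted p = 0.114) and COL4A2 (−1.52, adjusted p = 0.075). The list also held LAMA5 (−0.58, adjusted p = 0.0505 from edgeR) and LAMC1 (−0.50, adjusted p = 0.0535), chains of other laminins. DESeq2 called 5 higher and 5 lower at adjusted p ≤ 0.05, against 9.68% and 9.43% of all genes, and 2 higher and 3 lower at both cutoffs, against 7.78% of all genes in either direction.

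Adaptors and activators, the proteins that connect integrin tails to actin or switch integrins on, had 21 of 23 genes tested. edgeR called none higher and 2 lower at adjusted p ≤ 0.05 (2.88% and 2.2% of all genes), DESeq2 called none higher and 3 lower (9.68% and 9.43% of all genes), and edgeR called 1 higher (PXN, or paxillin) and 4 lower (also TLN2 and ILK) without preconditioned replicate 1, when 11.2% of all genes were called higher and 13.9% lower. FERMT1, or kindlin-1, the epithelial activator of integrins, had 47.6, 42.3 and 35.1 CPM in the fresh libraries and 26.2, 16.9 and 21.9 CPM in the preconditioned libraries, a log2 fold change of −0.94 ± 0.20 (SE; edgeR adjusted p = 0.0452). ACTN1, an α-actinin that crosslinks actin at adhesions, had 322, 308 and 327 CPM and then 225, 196 and 175 CPM, a log2 fold change of −0.68 ± 0.12 (SE; edgeR adjusted p = 0.0388). The groups did not overlap for 9 lower genes of the list, which include FERMT1, ACTN1, TLN1 and TLN2 (talins), ILK and VCL (vinculin), and for 2 higher genes, LIMS1 and ACTN4, against 18.8% and 17.9% of all genes. Apart from FERMT1 and ACTN1, these genes did not pass an adjusted p of 0.05 with edgeR. VCL, for example, had a log2 fold change of −0.10. The median of the list was −0.10.

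In the lists of hemidesmosome partners, membrane partners, inhibitors and trafficking genes, and latent TGF-β, edgeR called none at adjusted p ≤ 0.05 with all 6 libraries. Their counts of unadjusted p under 0.05 stand beside 30.6% of all genes, and their counts without preconditioned replicate 1 beside 25.2% called then. The 4 hemidesmosome partners had an unadjusted p under 0.05 in 2 cases and no calls by DESeq2. COL17A1, the transmembrane collagen of hemidesmosomes, had a log2 fold change of 0.05. PLEC and DST, the plakins that bind keratin filaments, had values of −0.84 and 0.85, with the largest distance from the fresh group in preconditioned replicate 3 for both (178 CPM for PLEC and 2725 CPM for DST). Without preconditioned replicate 1, PLEC was called lower, and DST and the tetraspanin CD151 higher. For the tetraspanins and other membrane partners, 5 of 7 genes were tested, 3 of which had an unadjusted p under 0.05, and DESeq2 called 1 higher at an adjusted p of 0.05 (9.68% of all genes). CD9 of this list had 724, 698 and 564 CPM in the fresh libraries and 821, 989 and 1012 CPM in the preconditioned libraries (adjusted p = 0.0757 from edgeR), and it was called higher without preconditioned replicate 1, as was CD151, also of this list. The 6 inhibitors and trafficking genes had 1 unadjusted p under 0.05, and the 4 genes of latent TGF-β had none, with no calls by DESeq2 in either list. NUMB, an endocytic adaptor of the former list, was called lower without preconditioned replicate 1, and no gene of the latter was. TGFB1 to TGFB3 and LTBP1 had log2 fold changes of −0.11 to 0.29.

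Of the remaining integrin genes, 15 were listed, 14 were analysed, 13 passed the filter, edgeR called none at adjusted p ≤ 0.05, 4 had an unadjusted p under 0.05 (30.6% of all genes), and DESeq2 called 4 at both cutoffs, all higher (3.62% of all genes in that direction). In edgeR, ITGA4 and ITGA11 were called higher without preconditioned replicate 1. ITGA1, a collagen receptor subunit, had 2.03, 2.84 and 7.03 CPM in the fresh libraries and 9.07, 12.6 and 11.5 CPM in the preconditioned libraries (log2 fold change 1.48, adjusted p = 0.089 from edgeR). ITGA8 (1.03, adjusted p = 0.0831) and ITGA4 (1.26, adjusted p = 0.111) did not overlap between the groups either. ITGA11, a collagen receptor of fibroblasts, had 20.9, 41.8 and 65.3 CPM in preconditioned replicates 1 to 3, against 15.4 to 26.7 CPM in the fresh libraries (edgeR adjusted p = 0.136), so that the groups overlapped through replicate 1. Of the leukocyte integrin subunits, ITGB2 and ITGAM were highest in preconditioned replicate 2 with 17.0 and 4.16 CPM, whereas ITGAL was highest in fresh replicate 3 with 5.93 CPM. The platelet subunits ITGA2B and ITGB3 had log2 fold changes of −0.47 and −0.19, and ITGAL −0.58, none of them called. The summed CPM of 6 immune markers did not overlap, from 152 to 182 (fresh) and from 187 to 372 (preconditioned), with CD3E at most at 1 count. Without CD68, a macrophage marker, the sums of the other 5 overlapped (51.4 to 89.0 and 28.5 to 72.1). Endothelial markers summed to at most 13.0 CPM and melanocyte markers to at most 0.396 CPM in every library, with PMEL, TYR and MLANA at no more than 3 counts. With preconditioned replicate 1 left out, edgeR called CD68 (1.45, adjusted p = 0.00432) and PECAM1, an endothelial adhesion molecule (1.77, adjusted p = 0.0266), higher, against 11.2% of all genes. PECAM1 was the only 1 of 4 endothelial markers that was tested. It had 0.882, 12.8 and 4.97 CPM in preconditioned replicates 1 to 3 and 2.30 to 2.99 CPM in the fresh libraries. Preconditioned libraries held 4 to 7 counts of CDH5 (fresh 0 to 3), but at most 1 of VWF (fresh 0 to 8) or KDR (fresh 0 to 6). The part of these cells in the integrin values was not tested.

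**Figure D5:**
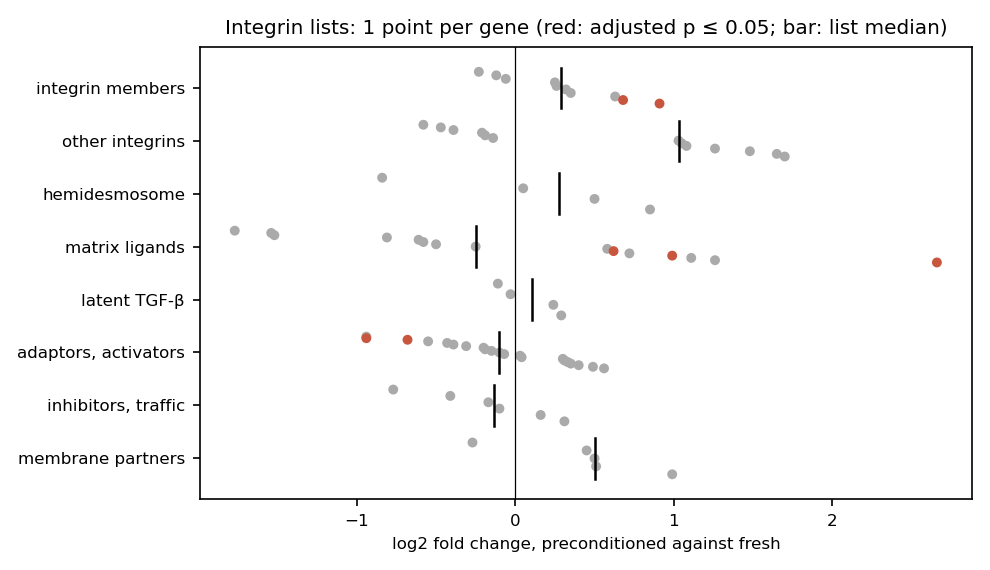
Log2 fold change, preconditioned against fresh, of each tested gene in 8 lists (1 point per gene, black bar: list median). Points with adjusted p ≤ 0.05 from edgeR (red) are the 2 integrins, 3 matrix ligands on the right and 2 adaptors on the left.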

How the data were processed

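RNA-seq libraries of LSCs from fresh (3) and preconditioned (3) rabbit tissue were compared; groups and replicate numbers came from the sample titles. Raw counts and FPKM were deposited by the authors, who used hisat2 for alignment and htseq-count for counting. In the deposited FPKM, counts are scaled by the sum over genes in a library and by 1 length per gene. Build, annotation and strand setting are not given in the sources used here, and no coordinates or sequences are printed.

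Counts were tested in R 4.3.3 with edgeR 4.0.16 (filterByExpr, TMM, robust quasi-likelihood test, condition as the only factor) and Benjamini-Hochberg adjustment over all 15029 genes tested. DESeq2 1.42.0, limma 3.58.1 on log2(FPKM + 1) and log2(FPKM + 0.1), other scalings, no filter, the replicate number as a block and leaving out each library were the alternatives. The sum of ITGB4 and LOC127490224, and marker sums without COL1A1, KRT5 or CD68, were added after seeing the data. Ratios of subunit pairs were compared by exact permutation tests (scipy 1.17.1). The fits were checked on counts drawn with known changes. The integrin genes and the lists were chosen with earlier results of these data known, so counts over them are descriptions. From the lists, genes with adjusted p ≤ 0.05 were named by rule, and others were named after their values were seen. The values of 1 matrix ligand with adjusted p ≤ 0.05 are not reported here. NCBI identifiers of all 10 integrins, but not of LOC127490224, were found in the RefSeq gene table of mOryCun1.1. Nothing shows whether libraries of a group came from separate animals, so the p values measure the spread between these libraries, which may be technical. Libraries of a group differed by more than sampling noise (chi-square of 48.1 to 147 per degree of freedom) and each counted as 1 sample.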

Additional observations from a re-analysis of the deposited data

How the results depend on the processing

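Against 344 genes called by edgeR at both cutoffs (163 higher, 181 lower), DESeq2 called 1190 (553 higher), library size alone in place of TMM 565 (142 higher, or 25.1% in place of 47.4%), and limma on log2(FPKM + 0.1) 590 (141 higher). With library size alone, the median log2 fold change of all genes moved from 0.01 to −0.16. Of the integrins, the number called at both cutoffs was 0 in all these settings and 0 to 1 when each library was left out. The number with adjusted p ≤ 0.05 at any fold was 2, and became 1 with library size alone (ITGAV; ITGB1 had 0.74, adjusted p = 0.0518 from edgeR) and 0 with limma on either FPKM scale (adjusted p of 0.0514 to 0.0562 for ITGAV and ITGB1). DESeq2's size factors and no filter left both called.

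With 1 library left out, the number of genes called ranged from 14 to 1546 and the integrins with adjusted p ≤ 0.05 from 0 to 3, with the highest values without preconditioned replicate 1 and 0 integrins without any other library. ITGAV and ITGB1 kept a positive log2 fold change in every setting run (0.48 to 0.77 and 0.73 to 1.05). The sign turned for genes without a call. Leaving out a library gave −0.01 to 0.42 for ITGA2, −0.21 to 0.12 for ITGB5, −0.16 to 0.57 for ITGB8 and −0.03 to 0.82 for the log2 difference of ITGAV over ITGB6, and ITGB8 was −0.0025 and −0.01 with limma on log2(FPKM + 1) and log2(FPKM + 0.1).

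With the replicate block, 30 genes and 0 integrins were called (adjusted p of 0.101 for ITGAV and 0.116 for ITGB1 from edgeR). Deviations of same-numbered libraries from their group means correlated at −0.109 to −0.0668 across genes, and no library correlated best with its own number. Deviations from a mean of 3 libraries depend on each other. The check therefore cannot decide whether same-numbered libraries share an animal, which is not given in the sources used here. Paired ratios gave the same differences of subunit pairs, and the smallest p that 3 pairs allow is 0.25. The cause of these changes was not tested.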
